A study of Mus musculus with 2 samples.

Results

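The 52 genes described here encode the subunits of heterotrimeric G proteins and the regulators of G protein signalling (RGS), and they were taken by gene symbol from the 55536 annotated mouse genes. They comprise 15 alpha, 5 beta and 12 gamma subunit genes and 20 RGS genes. The stimulatory alpha subunit gene Gnas lay outside the symbol rule and is given with the other genes of the pathway. Total RNA was measured in 2 libraries from the hippocampus of male mice of the F1 hybrid strain B6CASTF1/J at 36 days of age, with no treatment named in the labels. They form a single group, so there was no comparison of conditions. The tissue label speaks of a layer of hippocampus without saying which. Both libraries carry the same donor identifier but different biosamples, and nothing else shows that they come from separate animals. Any p-value therefore measures only how far these 2 samples lie apart, which may be technical. The gene tables held 28786216 expected counts in replicate 1 and 29755033 in replicate 2, and the 52 genes took 0.343% and 0.337% of the counts of all genes. Levels are in TPM, a relative abundance corrected for transcript length, and no table separates the 2 parental alleles of the hybrid.

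A heterotrimeric G protein couples a receptor in the membrane to enzymes and ion channels inside the cell. The alpha subunit binds GDP at rest, exchanges it for GTP when the receptor is activated, and parts from the beta-gamma dimer, after which both parts of the complex act on effectors. RGS proteins speed up the hydrolysis of GTP by alpha subunits and so shorten the signal. In hippocampal neurons the Gi/o subunits act downstream of metabotropic glutamate, GABA-B, adenosine and cannabinoid receptors, and Gq/11 subunits act on phospholipase C beta.

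The ends of the coding sequences are shown first because they sort the alpha and gamma genes by known modifications of their proteins. Most Gi/o alpha subunits have a cysteine as the fourth residue from the end, the residue that pertussis toxin ADP-ribosylates. Each alpha line gives the last 21 coding bases of a GENCODE M21 transcript on mm10, 5′ to 3′ on the gene's strand with the stop codon last, and the capitals mark the codon of the fourth residue from the end.
Gnao1-201 (chr8:93967035-93967055, plus strand): cggggcTGCggcttgtactga
Gnao1-207 (chr8:93956232-93956252, plus strand): cggggcTGTggactctactga
Gnai1-201 (chr5:18267019-18267039, minus strand): aaagacTGTggtctcttctaa
Gnai2-201 (chr9:107615635-107615655, minus strand): aaggacTGTggcctcttctga
Gnaz-201 (chr10:75015192-75015212, plus strand): aagtacATCggcctttgctga
Gnaq-201 (chr19:16383374-16383394, plus strand): aaggagTACaatctggtctaa
A cysteine codon, TGT or TGC, stood at this place in 7 of the 15 alpha genes, namely Gnao1, Gnai1, Gnai2, Gnai3, Gnat1, Gnat2 and Gnat3. These 7 genes held 60.5% ± 2.0 (SD, n = 2) of the summed TPM of the 15 alpha genes, a sum that leaves out Gnas. Gnaz, the Gi/o subunit known to resist the toxin, had ATC there, and Gnaq, a subunit of the Gq/11 group, had TAC.

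Gnao1 had 2 coding ends that differ in their bases and share the cysteine codon position. The end with TGC, of Gnao1-201 and Gnao1-203 together, stood at 188 and 168 TPM in replicates 1 and 2. The end with TGT, of Gnao1-207, had 34.1 and 31.7 TPM. The first end was thus 5.52 and 5.30 times the second in level. In the second transcript table, which quantified the same libraries in another way, the ratio was 5.39 and 5.08. The 2 tables gave nearly the same ratio of these ends, but different shares of the gene. The TGC end held 68.07% and 66.25% of the Gnao1 TPM in the first transcript table, and 45.5% and 43.3% in the second. The TGT end held 12.33% and 12.5% in the first, and 8.45% and 8.52% in the second.

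Gamma subunits end in a cysteine followed by 3 residues, the box at which a lipid is attached, and the last residue decides which lipid: leucine directs a geranylgeranyl group and serine a farnesyl group. The capitals in the gamma lines mark the last 4 codons before the stop codon.
Gng2-204 (chr14:19875807-19875824, minus strand): ttcTGCGCCATCCTTtaa
Gng3-201 (chr19:8838143-8838160, minus strand): ttcTGTGCGCTCCTCtga
Gng7-204 (chr10:80951621-80951638, minus strand): cctTGCATAATTCTCtag
Gng13-201 (chr17:25719015-25719032, plus strand): aagTGCACCATCCTAtga
Gng11-201 (chr6:4008143-4008160, plus strand): agcTGTGTCATTTCAtaa
Gngt1-201 (chr6:3996763-3996780, plus strand): ggcTGTGTGATTTCAtag
A leucine codon came last in 9 gamma genes, which held 98.6% ± 0.17 of the summed gamma TPM. A serine codon came last in Gng11, Gngt1 and Gngt2, which held 1.42% ± 0.17.

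Of the 52 genes, 39 reached 1 TPM in both libraries, which is 75% of them beside 57.8% of the 22028 annotated protein-coding genes. A further 11 were under 1 TPM in both, and Gna15 and Gng8 were on either side of 1 TPM. The summed level was 1983 TPM in replicate 1 and 1906 TPM in replicate 2. Alpha genes held 718 and 687 TPM of this sum, beta genes 602 and 571, gamma genes 393 and 389, and RGS genes 271 and 259. The order of the classes was the same in both libraries.

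**Figure D1:**
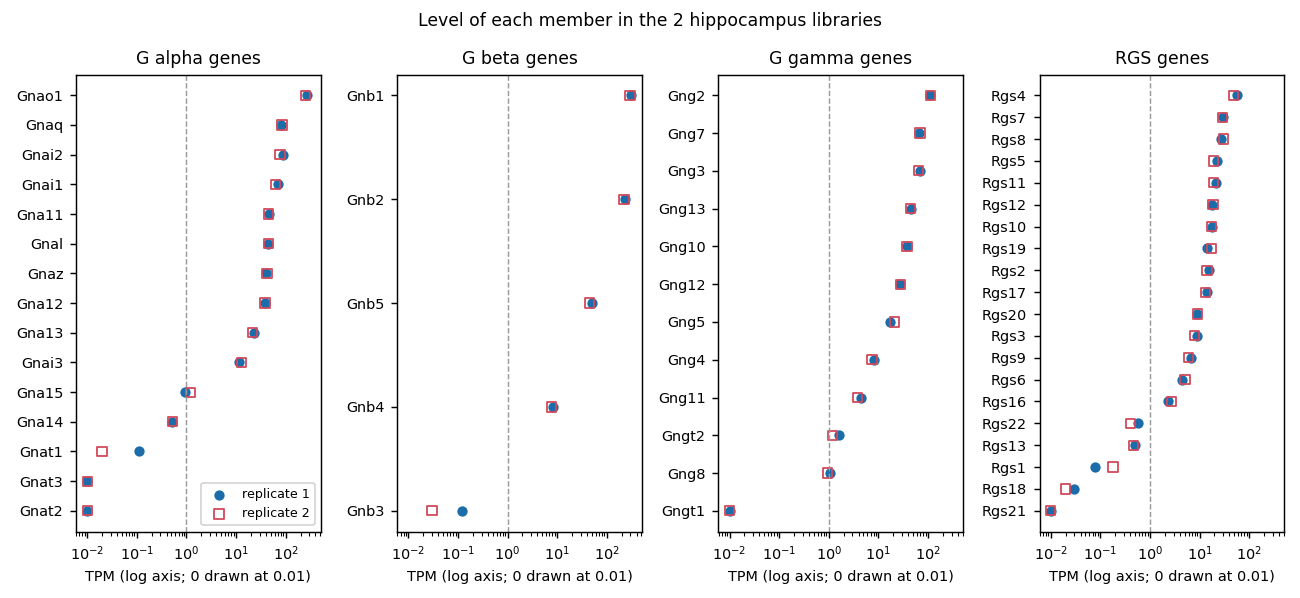
Level of each of the 52 genes in TPM on a log axis, in 4 panels by class, with filled circles for replicate 1 and open squares for replicate 2; the dashed line marks 1 TPM and a level of 0 is drawn at 0.01. Gnao1, Gnb1, Gng2 and Rgs4 lead their classes in both libraries, and 4 genes sit at 0 in both.

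Gnao1, the alpha subunit of Go and the most abundant Gi/o subunit known in neurons, was by far the highest of the 15 alpha genes taken by symbol. Its levels were 276 TPM in the first library and 254 in the second, ranks 158 and 174 among protein-coding genes. Gnas, which lay outside the symbol rule, was higher at 714 and 688 TPM. The next of the 15 alpha genes had at most 87.2 TPM in either library. Gnaq, which couples receptors to phospholipase C beta, had 81.7 and 84.6 TPM. Gnai2, an inhibitory subunit of wide expression, had 87.2 and 77.1 TPM, so its order with Gnaq differed between the libraries. The second transcript table put Gnaq above Gnai2 in both libraries, at 134.7 and 142.1 TPM beside 125.8 and 124.8 TPM. Gnai1, the inhibitory subunit enriched in brain, had 69.5 and 62.7 TPM and lay under Gnaq and Gnai2 in each library.

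Below these stood a group with levels close to each other. Gna11, the partner of Gnaq in its group, had 45.4 and 46.1 TPM, and Gnal, which couples dopamine and odorant receptors to adenylyl cyclase, had 43.7 and 45.6 TPM. The ranges of these overlapped. Gnaz had 40.3 and 42.1 TPM, Gna12 had 37.9 and 38.6 TPM and Gna13 had 22.8 and 21.7 TPM. Gna12 and Gna13 make up the G12/13 group. Gnai3 closed the expressed alpha genes at 11.4 and 12.8 TPM. Gna15 had 0.94 and 1.19 TPM and Gna14 had 0.52 and 0.53 TPM. Gi/o genes as a group held 66.4% ± 1.59 of the summed TPM of the 15 alpha genes, and Gq/11 genes 18.6% ± 0.97. Gna12 and Gna13 together held 8.63% ± 0.22, and Gnal, the only Gs member here, 6.37% ± 0.39. Gnas is outside this sum, and its 714 and 688 TPM stand beside 718 and 687 TPM for all 15 genes.

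The transducin genes were at or near 0. Gnat2 of cone photoreceptors and Gnat3 of taste cells had no count in either library, and Gnat1 of rod photoreceptors had 1 count in each. A count of 0 allows up to 3 counts, or 0.104 and 0.101 CPM, a count scaled to the library total, in the 2 libraries. Such limits and all intervals cover counting error only, because the libraries carry no molecular identifiers. Markers of those cells were low as well. None of 3 taste cell markers reached 1 TPM in both libraries, and their summed levels were 1.28 and 1.10 TPM. Crx, a transcription factor of photoreceptors, was at 0.

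Among the beta genes, Gnb1 and Gnb2 held nearly all of the level. Gnb1 had 307 and 294 TPM, ranks 125 and 127, and was the highest of the 52 genes in both libraries. Gnb2 had 237 and 223 TPM. Gnb5, the divergent subunit that pairs with R7 RGS proteins in place of a gamma subunit, had 49.9 and 45.6 TPM. Gnb4 had 8.08 and 7.60 TPM. Gnb3, the subunit of cone photoreceptors, had 4 counts and 1 count, 0.12 and 0.03 TPM. The 5 beta genes did not overlap in level: each lay wholly above the next in the order.

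Gamma genes were spread more evenly. Gng2, a neuronal subunit that forms dimers with several beta subunits, had 111 and 112 TPM. Gng7, known for its pairing with Gnal in the striatum, had 67.1 and 69.1 TPM. Gng3, a subunit of neurons, had 70.8 and 63.5 TPM, and its range took in that of Gng7. Gng13, known from taste and retinal bipolar cells, had 46.3 and 44.0 TPM. Gng10 followed at 38.2 and 37.8 TPM and Gng12 at 27.3 and 27.8 TPM. Gng5, Gng4, Gng11 and Gngt2 ranged from 20.99 down to 1.21 TPM. Gng8 had 12 counts in each library, and Gngt1, the gamma subunit of rod transducin, had no count in either gene table.

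RGS genes were lower and more even in level than the subunits. Rgs4, a short R4 protein that acts on Gi/o and Gq subunits, led with 57.1 and 48.3 TPM. Rgs7, of the R7 group that binds Gnb5, had 30.2 and 29.5 TPM. Rgs8, another R4 protein, had 26.9 and 30.2 TPM, which overlapped with Rgs7. Rgs5, an R4 gene widely used as a marker of pericytes, had 22.4 and 19.0 TPM and overlapped with Rgs11, of the R7 group, at 21.2 and 19.3 TPM. Rgs4 lay above the others in both libraries, and Rgs7 and Rgs8 lay above Rgs5 and Rgs11.

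The R12 and RZ groups followed. In the R12 group Rgs12, a large protein with several domains, had 18.2 and 18.6 TPM and Rgs10, a short protein known from microglia, had 17.5 TPM in both; the second table put Rgs10 above Rgs12 in both libraries. In the RZ group Rgs19, known as an interactor of Gi alpha subunits, had 14.4 and 17.5 TPM, Rgs17 14.5 and 13.3 TPM and Rgs20 8.93 and 9.25 TPM. Rgs19, Rgs2 and Rgs17 did not differ in level beyond their spread. Rgs2, a regulator of Gq, had 15.7 and 14.1 TPM. The R4 group held 48.4% ± 1.45 of the RGS TPM, R7 23.1% ± 0.046, RZ 14.7% ± 1.01 and R12 13.6% ± 0.53. The 4 R7 genes summed to 62.6 and 59.9 TPM beside 49.9 and 45.6 TPM of their partner Gnb5. The margin depended on the table. In the second transcript table, where the median protein-coding gene was 1.67 and 1.70 times higher, Gnb5 had 99.9 and 85.0 TPM. There Rgs7, Rgs11, Rgs9 and Rgs6 had 50.2, 30.9, 10.9 and 8.45 TPM in replicate 1. In replicate 2 they had 50.7, 28.1, 9.87 and 8.77 TPM. Together they were again above Gnb5 in both libraries, but by very little in replicate 1.

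The remaining R4 genes were low. Rgs3 had 8.79 and 7.84 TPM and Rgs16 2.37 and 2.77 TPM. Rgs13 had 15 and 14 counts, Rgs1 had 3 and 4, and Rgs18 had 1 in each. Rgs1, Rgs13 and Rgs18 are known from leukocytes, and of 5 leukocyte markers only the pan-leukocyte gene Ptprc reached 1 TPM in both libraries. Rgs21, known from taste cells, had no count. Rgs22, which belongs to none of the 4 groups, had 43 and 31 counts.

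With Gnas left out of the alpha class, Gnao1 held 37.7% ± 1.10 of the TPM of its class. The leading gene of the other classes held 51.3% ± 0.40 for Gnb1, 28.6% ± 0.41 for Gng2 and 19.9% ± 1.74 for Rgs4. These shares depended on the table. In the second transcript table Gnao1 held 46.7% and Gnb1 62.4%, while Gng2 held 22.7% and gave its lead to Gng7 at 25.7%. Rgs4 led in both tables and held 17.8% in the second.

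**Figure D2:**
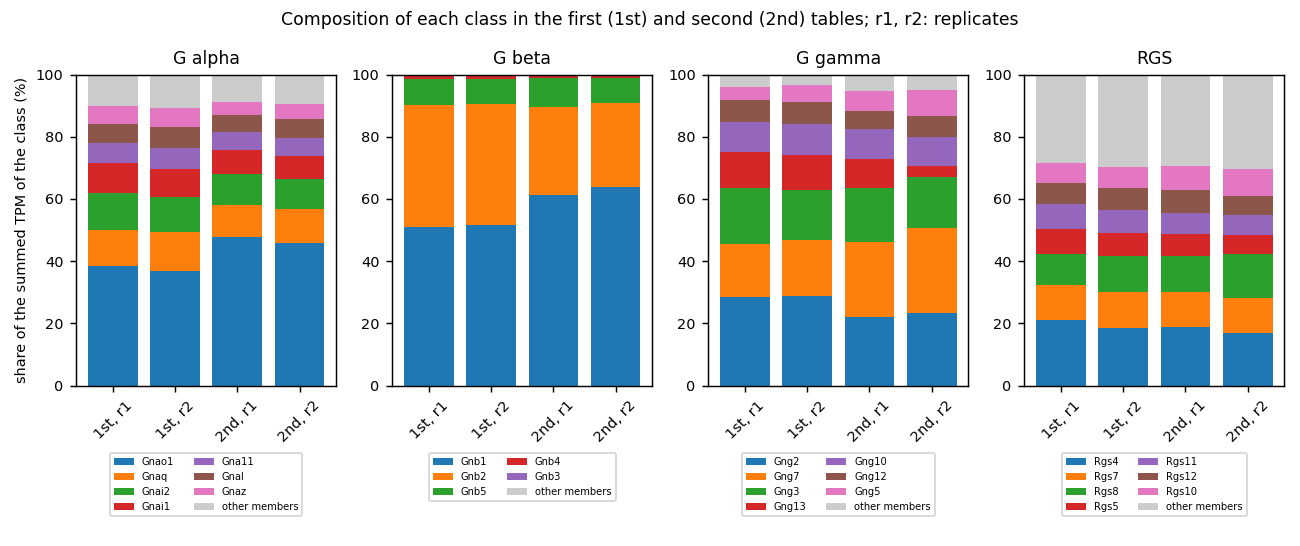
Share in percent of the summed TPM of each class held by its leading genes, as stacked bars for replicates 1 and 2 (r1, r2) in the first and the second tables. Gnao1 and Gnb1 take larger shares in the second table, and Gng13 is at 9.497% in replicate 1 and at 3.52% in replicate 2 there.

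Several of the genes lie near each other in the genome, with 0 to 2 other genes between them, and the 6 pairs of alpha or gamma genes among them differed widely in level. On chromosome 9 of mm10, Gnai2 lies 39106 bases from Gnat1, and their levels in replicate 1 were 87.2 and 0.11 TPM. On chromosome 3, Gnat2 at 0 lies 5847 bases from Gnai3, and on chromosome 5, Gnat3 at 0 lies 245300 bases from Gnai1. The Gq/11 genes form another 2 pairs. Gna15 and Gna11 lie 4498 bases apart on chromosome 10 with 0.94 and 45.4 TPM in replicate 1, and Gnaq and Gna14 lie 48298 bases apart on chromosome 19 with 81.7 and 0.52 TPM. On chromosome 6, Gngt1 lies 6467 bases from Gng11. In each of these 6 pairs the lower gene had at most 1.19 TPM in either library, and the other had at least 3.85 TPM.

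**Figure D3:**
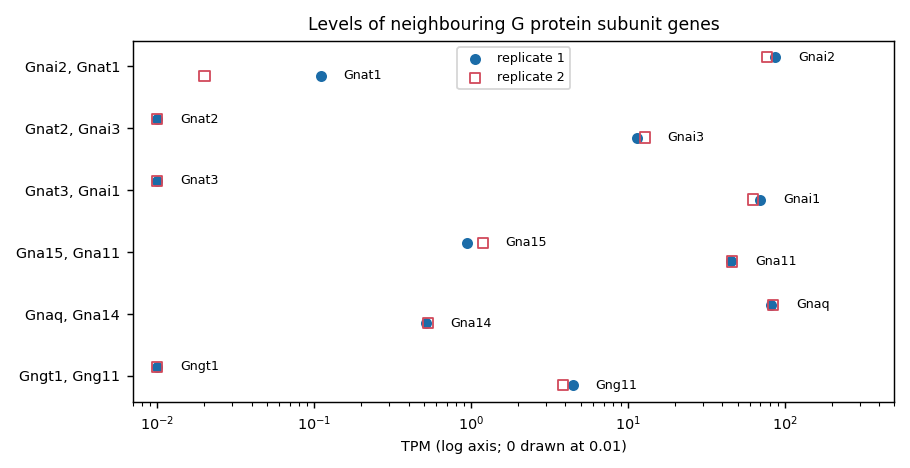
Levels in TPM on a log axis of 6 pairs of neighbouring alpha or gamma genes, with filled circles for replicate 1 and open squares for replicate 2; a level of 0 is drawn at 0.01. In each pair the 2 genes lie far apart in both libraries.

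Of the 20 RGS genes, 11 lie on chromosome 1. Of these, 5 form a cluster, Rgs2, Rgs13, Rgs1, Rgs21 and Rgs18, within bases 143999338 to 144775435, and only Rgs2 among them reached 1 TPM. Rgs5 and Rgs4 lie next to each other, 45663 bases apart on opposite strands, and both were expressed. Rgs8 and Rgs16 lie 40025 bases apart with 26.9 and 2.37 TPM in replicate 1. Rgs9 and Gna13 lie 64701 bases apart on chromosome 11 and were both expressed, with 6.69 and 22.8 TPM in replicate 1.

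The rounded counts of the libraries were compared by an exact binomial test, two-sided and adjusted by the Benjamini-Hochberg method over 18270 genes with a mean count of at least 10. A gene counted as apart at an adjusted p under 0.05 and a difference of at least 1.5-fold. None of the 44 tested members was apart, where 1.89% of all genes tested were, 1.23% higher in replicate 2 and 0.662% higher in replicate 1. At an unadjusted p under 0.05 in the same binomial test there were 12 members, 27.3% of those tested beside 21.8% of all genes tested, and the second transcript table also gave 0 apart. All but Gna15 lay within 1.5-fold, 97.7% of the tested members beside 92.8% of all genes tested. Gna15 had 30 and 48 counts and an adjusted p of 0.28 by the exact test. The median log2 ratio of replicate 2 over replicate 1 was -0.01 over the members and 0 over all genes. The test compares 2 libraries, each with no replicate of its own.

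With no minimum on the fold, 8 of the 44 members, or 18.2%, passed the adjusted p, beside 11.4% of all genes tested. Among genes with a mean count of at least 100 these shares were 21.6% of 37 members and 14.7% of all such genes. The 5 members higher in replicate 1 were Gnao1, Gnai1, Gng3, Rgs4 and Rgs5, beside 4.73% of all genes tested, and the 3 higher in replicate 2 were Gnal, Gnai3 and Gng7, beside 6.64%. The differences were small. Only Rgs5 passed a minimum of 1.2-fold, which 4.78% of all genes tested passed.

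Rgs5 had 1798 counts in replicate 1 and 1535 in replicate 2, 1.205-fold higher in replicate 1 (95% counting interval 1.12 to 1.29; exact binomial test, Benjamini-Hochberg adjusted p = 3.4e-06). Rgs4, its neighbour on chromosome 1, had 3267 and 2930 counts, 1.15-fold higher (1.09 to 1.21; adjusted p = 3.1e-06 by the same exact test). Gnao1 had 16760 and 15913 counts and was 1.08-fold higher in replicate 1 (1.06 to 1.11; exact test, adjusted p = 4.4e-11). Gnai1 was 1.09-fold and Gng3 also 1.09-fold higher in replicate 1. In the other direction Gnai3 was 1.15-fold, Gnal 1.12-fold and Gng7 1.07-fold higher in replicate 2. Gnb1, with 14607 and 14837 counts, differed by 0.988-fold (interval 0.965 to 1.01), and Gng2 by 1.03-fold (0.990 to 1.07). Scaled by the spike-in totals in place of the gene counts, every ratio moved up by 0.04 on the log2 scale, and Gnai1 and Gng3 no longer passed at an adjusted p of the exact test of 0.066 and 0.18.

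**Figure D4:**
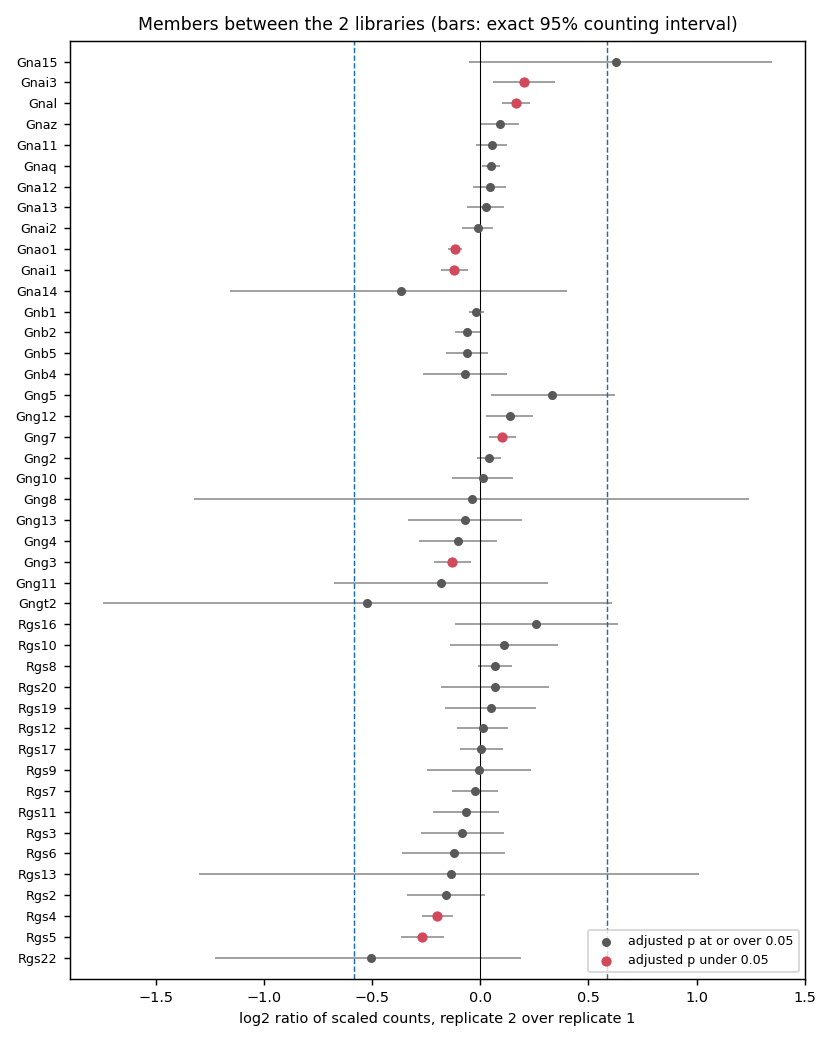
Log2 ratio of scaled counts, replicate 2 over replicate 1, for the 44 tested members in class order, with exact 95% counting intervals; red points passed an adjusted p of 0.05 and dashed lines mark 1.5-fold. The points lie between -0.52 and 0.63, and the wide intervals belong to genes with few counts.

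Markers of hippocampal cell types differed between the libraries beside these members. Of 66 markers tested over all lists, 17 were higher and 14 lower in replicate 2 at an adjusted p under 0.05. Of all genes tested, 11.4% passed this threshold. Apart were 6 markers higher in replicate 2 and 1 higher in replicate 1, where 1.89% of all genes tested were apart. All 5 CA1 pyramidal markers were lower in replicate 2 at an adjusted p under 0.05, with summed levels of 275 and 229 TPM, and all 5 dentate granule markers were higher, at 145 and 172 TPM. Of 6 interneuron markers, summed at 410 and 372 TPM, Sst and Gad2 were lower in replicate 2. Of 5 oligodendrocyte markers, summed at 1386 and 1307 TPM, 3 were lower and Opalin was apart. Of 5 astrocyte markers, summed at 450.1 and 467 TPM, 2 were higher. The 7 mural cell markers summed to 47.1 and 47.4 TPM, with 5 of them lower in replicate 2 in value, as Rgs5 was, and 1 past the adjusted p. That marker was Pdgfrb, at 0.709-fold in replicate 2 over replicate 1 (exact binomial test, Benjamini-Hochberg adjusted p = 2.9e-08), while Vtn, the highest of the list, had 24.2 and 27.7 TPM. Endothelial markers summed to 86.1 and 84.0 TPM with 2 of 5 lower and 1 higher, and striatal projection neuron markers to 70.3 and 71.6 TPM with 1 of 7 higher. Of 6 microglia markers, summed at 108 and 111 TPM, 1 was higher. Of 3 oligodendrocyte precursor markers, summed at 45.3 and 44.3 TPM, 1 was higher and 1 lower. Of 7 choroid plexus markers, 6 were tested and 5 were apart, all higher in replicate 2, with sums of 4.99 and 12.02 TPM. The part of cell composition in the differences of Rgs4, Rgs5, Gnao1 or the other 5 members was not tested. In tissue RNA, fewer cells of a type and less RNA per cell cannot be told apart.

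TPM and counts did not always move together, because TPM rests on how the counts of a gene are shared among its transcripts. Gnai2 had 3082 and 3146 counts, yet 87.2 and 77.1 TPM. Its short transcript Gnai2-205, of 621 bases, took 14.1 TPM from 151 counts in replicate 1 and 4.51 TPM from 50.8 counts in replicate 2. In Rgs19 the leading transcript Rgs19-201 held 62.3% of the TPM in replicate 1 and 33.7% in replicate 2, while the counts of the gene were 364 and 387. In Gng2 the transcript Gng2-206, of 393 bases, held 39.3% and 38.9% of the TPM from 264 and 277 of the 5135 and 5432 counts. The second transcript table had Gng2-206 at 0.

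Of the 39 members at 1 TPM, 35 had the same leading transcript in both libraries in the first transcript table, and in 21 it held at least 60% of the TPM of the gene in both. Gnai1, Gnai3, Gng3, Gng4, Gng11 and Rgs16 had 1 transcript with all of the level. Rgs6 had the most annotated transcripts, 22, and Rgs6-208 held 43.5% and 31.8% of its TPM. Gnb1-201 held 47.5% and 48.0% of Gnb1, Gng12-201 51.1% and 54.4% of Gng12, Rgs7-206 55.5% and 51.2% of Rgs7, Rgs8-202 62.2% and 56.0% of Rgs8, and Gnao1-201 37.3% and 36.3% of Gnao1. In 3 members the leading transcript of the first table was a retained intron form without a coding sequence. These were Gnb2-213 with 29.9% and 30.1%, Gnb4-207 with 30.5% and 33.1%, and in Rgs11 a form that differed between the libraries. The second table put Gnb2-213 at 0 in both libraries and Gnb4-207 at 3.46% and 4.45%. In Rgs2, Rgs2-201, annotated as a target of nonsense-mediated decay, held 44.1% and 39.7% in the first table, beside 44.0% and 42.6% of the coding Rgs2-202. Rgs3 and Rgs9 also changed their leading transcript between the libraries, each with no transcript above 44.3% in the first table.

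**Figure D5:**
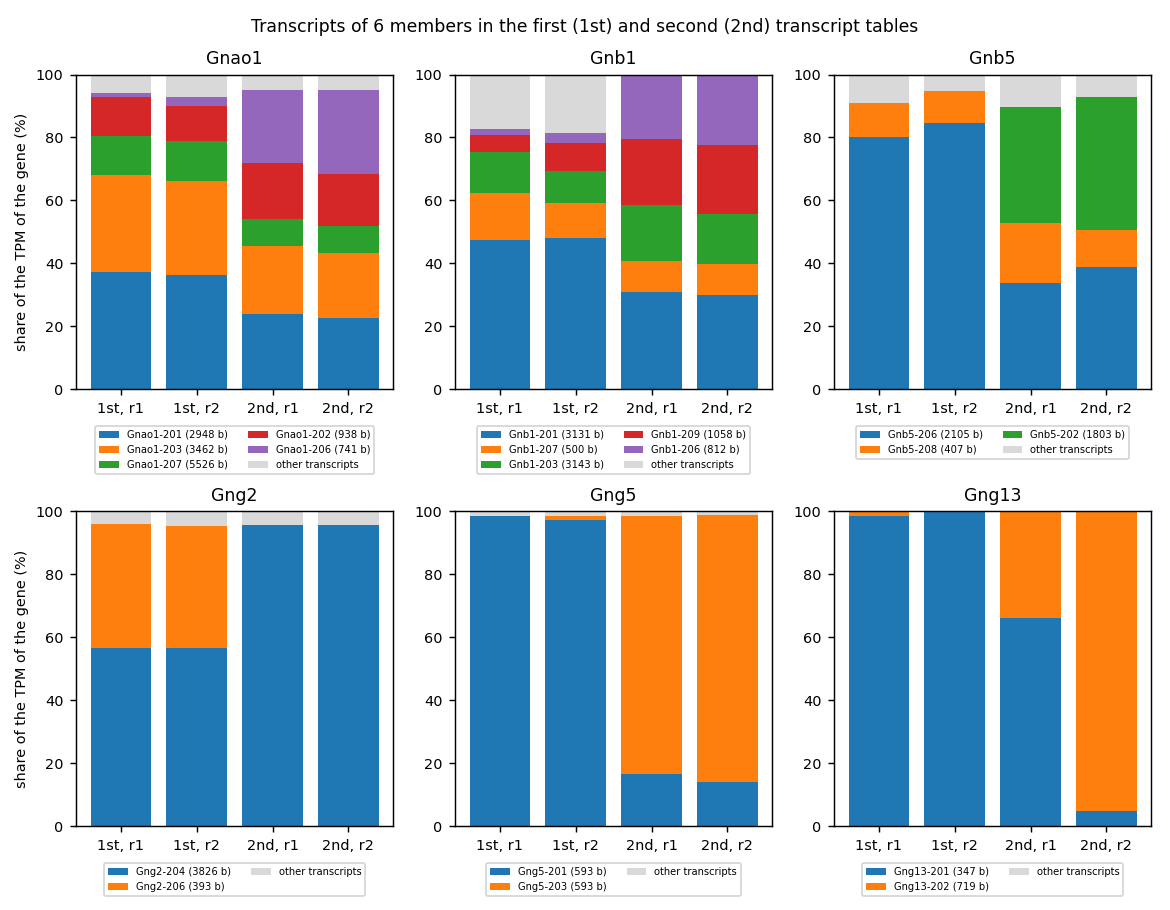
Share in percent of the TPM of 6 members held by their transcripts, as stacked bars for replicates 1 and 2 (r1, r2) in the first and the second transcript tables, with transcript lengths in bases (b). Within a table the 2 bars are alike except for Gng13 in the second, and the leading transcript differs between tables in both libraries for Gnb5 and Gng5 and in replicate 2 for Gng13 and Gnao1.

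The 2 transcript tables had the same leading transcript for 27 of the 39 members. In Gng5, Gng5-201 held 98.5% and 97.3% in the first table, and Gng5-203 held 82.2% and 84.8% in the second; both are 593 bases long and share 58.1% of their words of 31 bases. In Gnb5, Gnb5-206 held 80.3% and 84.6% in the first table, where Gnb5-202 was at 0, and the second table gave Gnb5-202 36.8% and 42.4%. In Rgs17, Rgs17-204 held 61.0% and 66.7% in the first table and Rgs17-202 49.0% and 66.9% in the second, and 98.6% of the words of Rgs17-202 occur in Rgs17-204. Gng7-204 led Gng7 in the first table with 58.6% and 69.5%, and in the second Gng7-202 led in replicate 1 with 61.6% and Gng7-204 in replicate 2 with 36.2%. Of the words of Gng7-202, 99.9% occur in Gng7-204. Which of such forms was present cannot be told from these tables. Gnb2-213, Gnb4-207, Rgs11 and Rgs12-204 also lost their lead in the second table, to Gnb2-201, Gnb4-201, Rgs11-208 and Rgs12-206. Of the words of Gnb2-213, 98.1% occur in Gnb2-201, and of those of Gnb4-207, 98.7% occur in Gnb4-201. Gnao1-206 came just ahead of Gnao1-201 in replicate 2 of the second table, with 26.8% and 22.6%.

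Gene levels were 1.67 and 1.70 times higher in the second table at the median of 9904 protein-coding genes, and distances of members are given beyond that shift. Gng2 was 0.607 and 0.610 times its first-table level, and Gng13 0.629 and 0.235 times. These were the only 2 of 35 members at 5 TPM or more that differed by at least 1.5-fold in both libraries. Of the 9904 genes, 5.84% in replicate 1 and 5.24% in replicate 2 lay beyond 1.5-fold once the shift was taken out. Among the members Gng12 came next at 0.653 and 0.699 times. On the other side Gnao1 was 1.34 and 1.37 times, Rgs20 1.33 and 1.49 times and Gnb1 1.27 and 1.354 times its first-table level. In Gng13 the second table had 134 and 98 counts beside 241 and 236 in the first, and moved the share of Gng13-201, a transcript of 347 bases, from 66.2% in replicate 1 to 4.90% in replicate 2. Gng13 shares 51.6% of its exon bases with Chtf18 on the opposite strand, and the strand setting of the counting is not given in the sources used here. Chtf18 itself had 30 and 21 counts in the gene tables, or 0.98 and 0.29 TPM.

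Of 37 other genes of the pathway in 10 lists, 29 reached 1 TPM in both libraries, and 0 of the 33 tested were apart by the exact binomial test, with 0 also in the second transcript table. At an unadjusted p under 0.05 of that test there were 6, or 18.2% of them beside 21.8% of all genes tested, and at an adjusted p under 0.05 with no minimum on the fold 1, or 3.03% beside 11.4%. Gnas, the stimulatory alpha subunit, had 714 and 688 TPM, above each of the 52 genes. Ric8a, a chaperone of alpha subunits, had 33.4 and 33.1 TPM. Among partners of R7 proteins, the membrane anchor Rgs7bp had 62.0 and 61.6 TPM and the orphan receptor Gpr158 31.7 and 29.8 TPM, while the retinal anchors Rgs9bp and Gpr179 had at most 0.09 TPM. Gpsm1, a GoLoco protein that binds Gi alpha subunits in their GDP form, had 17.6 and 16.5 TPM.

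Effector genes of the pathway ranged from high to near 0. Plcb1, the Gq effector of the hippocampus, had 61.7 and 60.1 TPM, above Plcb4 at 8.01 and 8.30 TPM and Plcb3 at 5.54 and 5.60 TPM, with Plcb2 at 1.10 and 0.90 TPM. Kcnj6 and Kcnj3, subunits of the potassium channel opened by beta-gamma dimers, had 53.5 and 53.6 TPM, and 43.5 and 44.7 TPM, while Kcnj5 had 0.06 and 0.16 TPM. Kcnj9, a further subunit, had 28.1 and 25.2 TPM and was the 1 pathway gene past the adjusted p, at 0.894-fold in replicate 2 over replicate 1 (exact binomial test, Benjamini-Hochberg adjusted p = 0.011). Arhgef12, an exchange factor that binds Gna12 and Gna13, had 64.2 and 62.3 TPM. Grk2, a receptor kinase that binds beta-gamma dimers, had 76.7 and 82.4 TPM, and the beta-arrestin Arrb1 58.1 and 57.5 TPM. All 5 prenylation genes were expressed, with Fnta, the subunit that farnesyl and geranylgeranyl transferases share, at 20.5 and 20.1 TPM. Pdc, the phosducin of photoreceptors, had no count.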

How the data were processed

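The authors deposited a gene table and 2 transcript tables per library. The gene table and first transcript table give an expected count and TPM, per the file headers in the layout of RSEM, and the first transcript table gives each transcript's share of its gene in percent. The deposited second transcript table gives an estimated count and TPM in the layout of kallisto. The deposited posterior standard deviation of a count, a score, served only to mark shared reads, which marked Gng10 and Rgs3. Annotation was GENCODE M21 on mm10, per the deposited README. Programs, their versions and the strandedness used in counting were not given in the sources used here. Per the labels, 300 ng of RNA with ERCC spike-ins entered each library.

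Members were matched by symbol, and all 52 were found. Expected counts were rounded and scaled by TMM factors (trimmed mean of M values, edgeR 4.0.16), and tested with scipy 1.17.1; the quasi-likelihood test of edgeR needs replicates in each group and was not run. Ratios are of scaled counts with 0.5 added, and intervals are exact 95% Clopper-Pearson intervals. Spike-ins, 0.421% and 0.408% of the totals with other entries that name no mouse gene, stayed out. Table distances used 0.01 added to TPM. Sequences and coordinates came from GENCODE M21; no protein table was used here and no Gnal sequence is shown. Alternatives were the size factors of DESeq2 1.42.0, spike-in totals, other minimums and the second table. The test was checked on simulated counts that vary by counting error only, so the check does not cover other differences between libraries. Genes named with values are the 4 highest of each class, the highest of each RGS group, those at 0, those in neighbouring pairs, those whose leading transcript differed or held under 60%, and the 3 farthest between tables in each direction; others were named after their values were seen. The members and lists were chosen with earlier results of these data known.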

Additional observations from a re-analysis of the deposited data

How the results depend on the processing

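The number of members at 1 TPM or more in both libraries was 39, and it ranged from 35 to 43 with 0.5 or 5 TPM, the second transcript table, TPM rescaled over protein-coding genes, or without members that share reads; without 1 replicate it was 40 either way. No member was apart under any scaling, count minimum or table tried; with a minimum of 1.2-fold there was 1 and with no minimum on the fold there were 8. With no minimum on the fold 1 pathway gene was apart in place of 0. Of the cell type markers 7 were apart, 2 with a mean count of at least 100, 18 with a minimum of 1.2-fold and 31 with none. The alternatives for the markers, and for the pathway genes the minimums of fold and of 100 counts and the total counts, were chosen after the data were seen. Under total gene counts Gnai3 missed the exact test (adjusted p = 0.059), as did Gnai3 (0.088) and Gng3 (0.050) in the second table. The signs of all 44 ratios held with DESeq2 size factors, and those of 43 with total counts, 40 with spike-in totals and 38 in the second table. In the second table the share of its class moved to 46.7% for Gnao1, 62.4% for Gnb1, 22.7% for Gng2 and 17.8% for Rgs4. Without 1 replicate these shares lay between 36.9% and 38.5%, 51.0% and 51.6%, 28.3% and 28.9%, and 18.6% and 21.1%. Leading transcripts at 60% or more numbered 21, and 23 or 24 without 1 replicate. No paired analysis was possible because there is 1 group. Leaving out a library ends every test between them. The depth allows no statement on genes at a few counts.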

Other observations

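The genes at or near 0 in the gene tables were not all at 0 in the second transcript table. Gngt1, at 0 in both gene tables, was given 7.86 and 8.60 estimated counts there, and Gnat1, with 1 count in each gene table, was given 7.20 and 8.16. In Gnat1 nearly all of this fell on Gnat1-202, with 100% and 97.0% of the TPM of the gene. This form is annotated as a target of nonsense-mediated decay, with 261 coding bases beside 1050 in Gnat1-201. Its coding end differs from that of Gnat1-201 and has no cysteine codon at the fourth place from the end. Gnat2 and Gnat3 were at 0 in both tables.

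Exons of 16 of the 52 genes overlap exons of genes on the opposite strand. The share over all annotated genes was not counted. Gng3 shares 24.2% of its exon bases with Bscl2, which had 44.4 and 39.2 TPM, and Gng3 had 2248 and 2115 counts in the gene tables beside 1744 and 1618 in the second transcript table. Gng2 shares 20.4% with Gm48283, which had 1 count and 0 counts. Gng10 shares 72.0% with Gm20503 on its own strand, which had 8.75 and 28.4 counts in the gene tables. The counts of Gng10, 830 and 860 in the gene tables, were 631 and 628 in the second table. How far reads of these partners entered the counts of Gng3, Gng13 or Gng10 was not tested.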
